A study of Mus musculus with 3 samples.

Results

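The transcripts of 10 enzymes that make and break lipid mediators were followed across 3 mouse libraries. They are Alox15, Alox5, Alox5ap, Ltc4s, Ptgs1, Ptgs2, Ptgis, Ptgds, Hpgds and Pla2g7, 10 of the 26124 genes counted, taken by their symbols, each of which matched 1 gene. The question was which cells of the cauda epididymis and the testis held the transcripts for which lipid mediator. All 3 libraries hold single-cell RNA from Tsc22d3 knockout mice of the goGermline line, whose males make no sperm of their own and serve as hosts, with 1 library in each group. The chimera cauda library came from the sperm-storing end of the epididymal duct, the cauda, of a knockout complemented with mouse induced pluripotent stem cells. Its line is given as Pax7-nGFP iPS x goGermline and its cells as spermatids and spermatozoa. The KO testis library held testicular cells of an adult knockout. The KO cauda library held epididymal cells of a knockout without donor cells. Both cauda samples were drawn out through the skin by aspiration, and the ages of their mice are not given in the sources used here. A chimera mixes host and donor cells, and these counts were not used to tell them apart.

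A library, an animal and a condition cannot be told apart here, and no test between groups was run. Counts are unique molecular identifiers (UMIs), each standing for 1 captured transcript molecule, and totalled 5395856 in the chimera cauda, 134795047 in the KO testis and 41862286 in the KO cauda. Barcodes with at least 500 UMIs, at least 200 genes and at most 20% mitochondrially encoded UMIs were kept, which left 184 in the chimera cauda, 13662 in the KO testis and 3525 in the KO cauda. A kept barcode joined a class when it held enough UMIs of that class's markers, none of which is one of the 10 genes. Macrophages made up 66 barcodes in the chimera cauda, 2161 in the KO testis and 1033 in the KO cauda, with medians of 29121, 5541 and 17148 UMIs in that order of libraries. In the 17 classes of at least 20 barcodes, every marker of the class was above 3 UMIs. The label of the chimera library was met in part, since 30 of its kept barcodes passed the gate for spermatids or sperm, beside 66 macrophages and 50 B lymphocytes. The level of a gene in a class is given as CPM, its UMIs per 1000000 UMIs of the class, with an exact Poisson 95% interval. Shares of barcodes carry exact Clopper-Pearson intervals and folds exact conditional binomial intervals. All of these cover counting error only.

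The 2 cauda libraries share cell barcodes. Of the 66 chimera macrophage barcodes, 63 were also among the KO cauda barcodes, and so were 49 of the 50 B lymphocytes, but only 2 of the 30 spermatid or sperm barcodes. The shared barcodes were alike in what they held. Each of these 63 correlated better with the same barcode in the KO cauda than with any other of the shared barcodes, with a median correlation of 0.744 across genes against 0.518 for other barcodes, as a description of barcodes that share their sequence. The same macrophage barcode held a median of 29441 UMIs in the chimera library and 4822 in the KO library. KO cauda barcodes carried 58.8% of all chimera UMIs. The KO testis shared 0 kept barcodes with the chimera cauda and 8 with the KO cauda. Whether the same cells were captured once, or reads of one library stand in the other, cannot be told apart here. The chimera macrophages and B lymphocytes are not used as an independent sample of the chimera, and their values are given below with this in view. Leaving the shared barcodes out left 3 macrophages and 1 B lymphocyte in the chimera, too few to give a level.

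Lipid mediators of this family are made from arachidonic acid that phospholipases free from membranes. The cyclooxygenases Ptgs1 and Ptgs2 turn it into prostaglandin H2, which terminal synthases turn into prostacyclin (Ptgis) or prostaglandin D2 (Ptgds and Hpgds). The 5-lipoxygenase Alox5, with its helper Alox5ap, makes leukotriene A4, which Ltc4s joins to glutathione, and the 12/15-lipoxygenase Alox15 makes hydroxy fatty acids. Pla2g7 breaks down platelet-activating factor. Macrophages, mast cells and other myeloid cells are known for leukotrienes, vessel and muscle walls for prostacyclin, and male reproductive ducts for Ptgds, which is secreted into the seminal fluid.

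The annotation GENCODE M21 of GRCm38 lists each of the 10 as a protein-coding gene, and whole gene spans are given here. The lipoxygenase genes are Alox15 at chr11:70344152-70352031 on the minus strand and Alox5 at chr6:116410077-116461178 on the minus strand. Their partners are Alox5ap at chr5:149264767-149288153 on the plus strand and Ltc4s at chr11:50236461-50238616 on the minus strand. Ptgs1 lies at chr2:36230426-36252272 and Ptgs2 at chr1:150100031-150108227, both on the plus strand. Ptgis at chr2:167191805-167240604, Ptgds at chr2:25466709-25470046 and Hpgds at chr6:65117293-65144908 lie on the minus strand, and Pla2g7 at chr17:43568098-43612201 on the plus strand. No counted gene overlaps any of them on the same strand. A counted gene model lies on the opposite strand over Alox5ap and over Ptgs1, and whether counting used the strand is not given in the sources used here.

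Gene starts in RefSeq can differ from the ends of the GENCODE spans above. Promoter windows from 250 bases before to 50 after the RefSeq start were at hand for 7 of the 10 genes, and that of Pla2g7 lay wholly inside its GENCODE span. Those of Alox5, Ltc4s, Ptgs1, Hpgds and Pla2g7 are shown because macrophages were the highest class for each of these genes in at least 1 library. PU.1 is a transcription factor of myeloid cells, and capitals mark the letters GAGGAA, its core motif, on either strand (TTCCTC where it lies on the other strand). Each reads 5′ to 3′ along its gene, on GRCm38.p6: Alox5 from chr6:116461129-116461428, minus strand, Ltc4s from chr11:50238483-50238782, minus strand, Ptgs1 from chr2:36230176-36230475, plus strand, Hpgds from chr6:65144681-65144980, minus strand, and Pla2g7 from chr17:43568201-43568500, plus strand, which holds no match.
Alox5: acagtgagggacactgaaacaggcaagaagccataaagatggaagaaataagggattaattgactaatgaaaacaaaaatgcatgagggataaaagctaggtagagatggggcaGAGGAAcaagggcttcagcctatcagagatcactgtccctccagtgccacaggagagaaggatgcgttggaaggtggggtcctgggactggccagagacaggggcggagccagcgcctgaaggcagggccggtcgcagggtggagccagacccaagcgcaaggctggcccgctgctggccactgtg
Ltc4s: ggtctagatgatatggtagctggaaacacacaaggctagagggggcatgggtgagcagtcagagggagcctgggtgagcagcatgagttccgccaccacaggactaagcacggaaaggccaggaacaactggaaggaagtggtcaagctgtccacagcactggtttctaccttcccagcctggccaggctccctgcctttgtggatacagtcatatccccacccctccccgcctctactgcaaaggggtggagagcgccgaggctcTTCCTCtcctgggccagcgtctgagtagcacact
Ptgs1: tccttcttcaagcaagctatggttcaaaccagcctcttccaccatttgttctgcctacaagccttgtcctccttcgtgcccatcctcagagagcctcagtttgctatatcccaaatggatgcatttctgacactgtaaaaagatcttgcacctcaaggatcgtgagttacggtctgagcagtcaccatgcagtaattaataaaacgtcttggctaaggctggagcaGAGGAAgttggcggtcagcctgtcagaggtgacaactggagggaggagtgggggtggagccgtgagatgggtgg
Hpgds: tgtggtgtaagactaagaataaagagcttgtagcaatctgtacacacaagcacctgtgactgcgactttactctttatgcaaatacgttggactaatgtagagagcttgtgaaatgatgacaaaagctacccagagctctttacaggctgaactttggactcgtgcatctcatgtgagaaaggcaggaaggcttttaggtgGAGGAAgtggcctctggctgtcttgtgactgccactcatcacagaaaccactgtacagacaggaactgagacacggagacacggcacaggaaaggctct
Pla2g7: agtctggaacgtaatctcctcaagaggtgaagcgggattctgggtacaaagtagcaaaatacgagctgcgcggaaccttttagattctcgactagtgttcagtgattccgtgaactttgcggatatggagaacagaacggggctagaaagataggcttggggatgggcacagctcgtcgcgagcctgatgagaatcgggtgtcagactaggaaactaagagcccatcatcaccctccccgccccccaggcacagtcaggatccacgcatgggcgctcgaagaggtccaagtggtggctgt

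The letters GAGGAA stood in 5 of the 7 windows, those of Alox5, Ltc4s, Ptgs1, Hpgds and Ptgs2, and in 28.3% of 32851 promoter windows of the same length. The windows of Ptgds and Pla2g7 held none. AGATAA, the core letters bound by GATA factors such as Gata6, stood in 0 of the 7 windows and in 11.2% of all. No window was at hand for Alox15, Alox5ap and Ptgis, so neither motif was looked for in these genes. A match describes the letters in this window and no site in use.

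Macrophages were the class with the highest level for most of the enzymes. In the chimera cauda this was so for 7 of the 8 genes with at least 10 CPM in a class, where 36.1% of all such genes had their highest level in macrophages. In the KO testis it was so for 5 of 9 (Alox5, Alox5ap, Ltc4s, Hpgds and Pla2g7), against 7.93% of all genes. In the KO cauda it was so for 6 of 10 (Alox15, Alox5, Alox5ap, Ltc4s, Ptgis and Pla2g7), against 18% of all genes. The exception in the chimera cauda was Ptgds, which was led by spermatid or sperm barcodes from 1 UMI. The classes compared there were macrophages, B lymphocytes and spermatid or sperm, since epithelium held 1 barcode. Ptgs1, led by epithelium in the KO cauda, thus had no epithelium class beside it in the chimera. As 63 of the 66 chimera macrophage barcodes are also KO cauda barcodes, the chimera count is not independent of the KO cauda count. The exceptions were Ptgs1, Ptgs2, Ptgds and Ptgis in the KO testis, where Alox15 was under 10 CPM in every class, and Ptgs1, Ptgs2, Ptgds and Hpgds in the KO cauda. Ptgs2 in T or NK lymphocytes of the KO testis rested on 2 UMIs, and so did Hpgds in KO cauda epithelium.

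**Figure D1:**
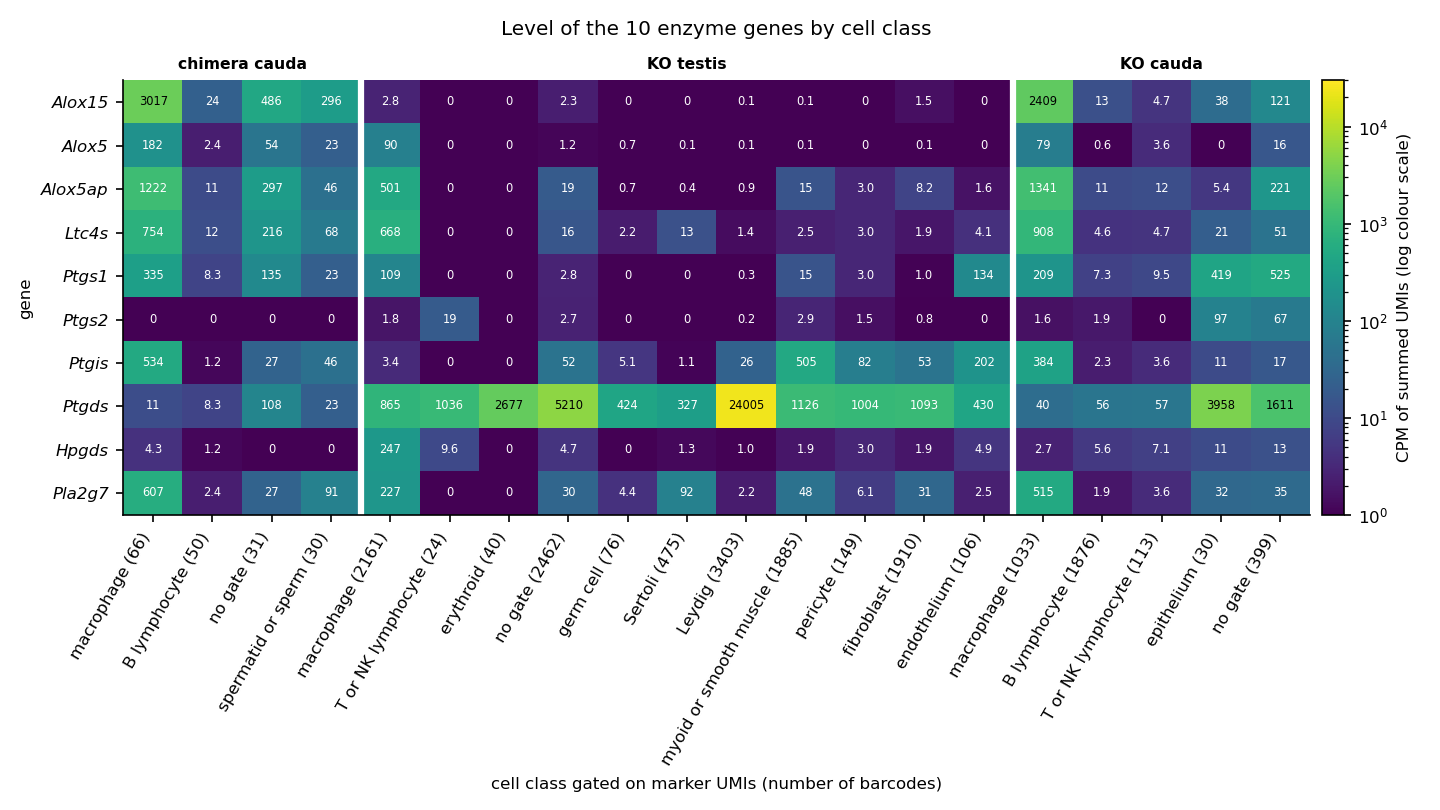
Level of each of the 10 genes (rows) in each class of at least 20 barcodes and in the barcodes that passed no gate (columns, with the number of barcodes), in CPM of summed UMIs on a log colour scale, for the chimera cauda, the KO testis and the KO cauda. Macrophages of both cauda libraries are high for Alox15, at 3017 and 2409 CPM, and KO testis Leydig barcodes for Ptgds, at 24005 CPM.

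Alox15 transcripts lay mostly in cauda macrophages. It is the 12/15-lipoxygenase that mouse peritoneal macrophages are known for. Its level was 3017 CPM (2939 to 3098) in chimera cauda macrophages, 2.85 CPM (1.98 to 3.96) in KO testis macrophages and 2409 CPM (2386 to 2432) in KO cauda macrophages. KO cauda macrophages held 95.8% of all its UMIs in that library, and 1006 of 1033 macrophage barcodes held at least 1, with a median of 37. Ranked by UMIs, which this chemistry takes from the 3′ end whatever the length of the transcript, it stood 77th of 15878 genes detected in those cells. Per barcode it ran from 0 to 7740 CPM in KO cauda macrophages, with a median of 2320 and quartiles of 1446 and 3122. B lymphocytes of the same library had 12.6 CPM, which is 0.524% of the macrophage level, beside 0.687% for the 6 macrophage markers together.

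The macrophages with Alox15 were those with the Gata6 programme of large peritoneal macrophages. This programme was read from Gata6, Icam2, Prg4 and Garnl3, and 63 of 66 chimera cauda, 1 of 2161 KO testis and 998 of 1033 KO cauda macrophages held at least 10 UMIs of it. Alox15 in KO cauda macrophages was 2443 CPM in these 998 barcodes and 171 CPM in the 35 with fewer programme UMIs, a fold of 14.3 (10.8 to 19.5). This split did not allow for depth, and the medians were 17302.5 UMIs in the 998 and 3583 in the 35. Only 25 KO cauda macrophages held under 10 programme UMIs per 10000, so the 35 include shallow barcodes with the programme. The level of Alox15 did not follow the programme in steps. Its median was 0 CPM in the 25 barcodes with under 10 programme UMIs per 10000, 2038 CPM in the 6 with 10 to 20, and 2148 CPM in the 174 with 100 or more. MHC class II made little difference, with 2490 CPM in the 489 barcodes with at least 10 UMIs of H2-Aa, H2-Ab1, H2-Eb1 and Cd74 and 2312 CPM in the other 544.

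**Figure D2:**
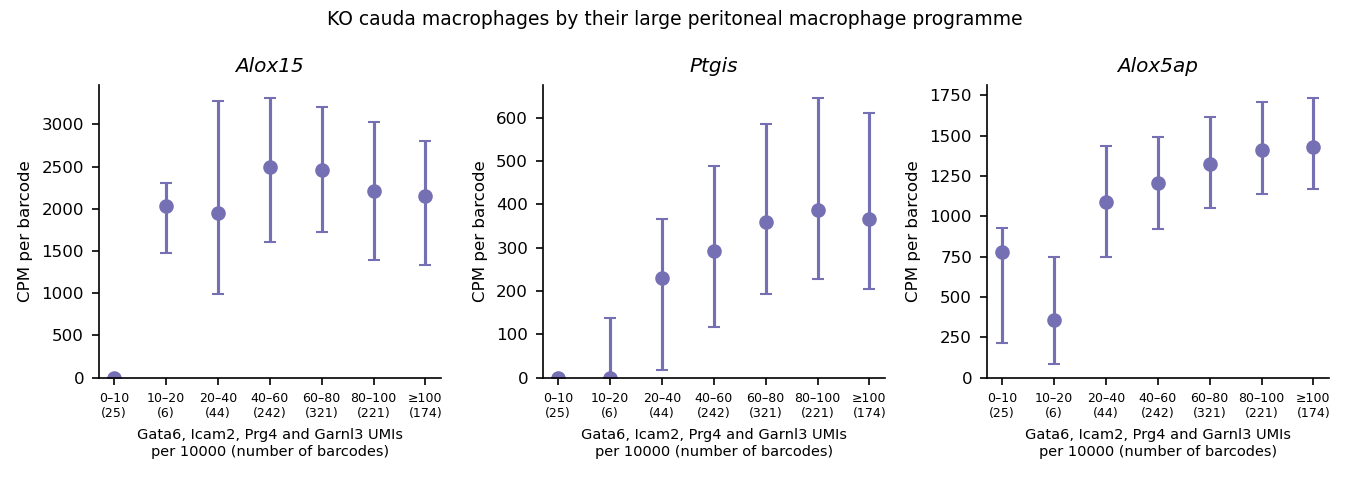
KO cauda macrophages grouped by their UMIs of Gata6, Icam2, Prg4 and Garnl3 per 10000 UMIs (x axis, with the number of barcodes), with the CPM per barcode of Alox15, Ptgis and Alox5ap (y axis; points are medians, bars run between the quartiles). Alox15 stands at 0 in the first bin and near 2000 or above from the second on, while Ptgis stands at 0 in the first and second bins, at 230 in the third and at 387 in the sixth.

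The KO testis held 72 UMIs of Alox15 in all, and 34 of them lay in 1 macrophage barcode. That barcode was the only KO testis macrophage with the Gata6 programme, of which it held 129 UMIs, and its Alox15 level was 2501 CPM. The barcode with the next most, 13 UMIs of Alox15, passed the fibroblast gate and held 38 UMIs of the programme. The other 2160 macrophages held 1 UMI of Alox15 together.

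The 5-lipoxygenase route was carried by macrophages of both organs. Alox5 itself was sparse, with 182 CPM (163 to 203) in chimera cauda macrophages, 89.9 CPM (84.7 to 95.4) in KO testis macrophages and 79.4 CPM (75.3 to 83.6) in KO cauda macrophages. Macrophages held 81.0% of its UMIs in the KO testis and 93.6% in the KO cauda. Outside macrophages it was at or below 5 UMIs in each gated class of the KO testis. KO cauda B lymphocytes had 11 UMIs, which is 1.12 times (0.559 to 2.01) what their macrophage marker UMIs carry in macrophages.

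Alox5ap, the membrane protein that hands arachidonic acid to Alox5, was found in macrophages of all 3 libraries. Its level was 1222 CPM (1172 to 1273) in chimera cauda macrophages, 501 CPM (488 to 514) in KO testis macrophages and 1341 CPM (1324 to 1358) in KO cauda macrophages. It was also found in the few dendritic barcodes, in 4 of 4 of the KO testis at 1196 CPM (862 to 1617) and in 10 of 10 of the KO cauda at 771 CPM (643 to 917). Those 10 held 3 UMIs of Alox5 and 0 of Ltc4s, where the floor of 3 UMIs stands for 18.2 CPM. Myoid or smooth muscle barcodes of the KO testis had 14.5 CPM of it, 7.72 times (6.38 to 9.28) what their macrophage marker UMIs carry in macrophages.

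Ltc4s, which makes leukotriene C4, was high in macrophages of all 3 libraries. Chimera cauda macrophages had 754 CPM (715 to 794), KO testis macrophages 668 CPM (653 to 682) and KO cauda macrophages 908 CPM (895 to 922). Among KO testis macrophages it stood apart by MHC class II, with 342 CPM in the 462 barcodes with at least 10 UMIs of class II and 746 CPM in the other 1699, a fold of 0.459 (0.427 to 0.494). Hpgds in the same barcodes had a fold of 1.01 (0.922 to 1.11). The same split of KO cauda macrophages gave 891 and 929 CPM of Ltc4s. Sertoli barcodes, which line the seminiferous tubule, had 12.8 CPM (10.4 to 15.8) of Ltc4s in 76 of 475 barcodes, 12.6 times (10.1 to 15.5) what their macrophage markers carry.

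Ptgs1, the constitutive cyclooxygenase, had more than 1 kind of cell. Macrophages held 335 CPM (309 to 363) of it in chimera cauda, 109 CPM (103 to 115) in KO testis and 209 CPM (202 to 216) in KO cauda libraries. In the KO testis its highest class was the endothelium, with 134 CPM (115 to 157) in 60 of 106 barcodes, an interval that meets that of the macrophages. Its highest class in the KO cauda was the epithelium, with 419 CPM (331 to 523) in 20 of 30 barcodes. The 399 KO cauda barcodes that passed no gate had 525 CPM (478 to 576). The genes that stood most above the other kept barcodes in these 399 were led by Trp63, of basal epithelial cells, and included Grhl2 and Pax8, transcription factors of epithelium and of the genital ducts, a choice made after values were seen. Epithelial markers summed to 354 CPM in them, against 1563 CPM in the epithelium class and 7.94 CPM in macrophages. Macrophage markers summed to 497 CPM and B lymphocyte markers to 397 CPM in the same 399, against 9611 CPM in macrophages and 7791 CPM in B lymphocytes, and the 399 are given no cell type.

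Ptgs2, the inducible cyclooxygenase, was scarce, and highest in the epithelium of the KO cauda. Macrophages had 0 UMIs in the chimera cauda, where the floor of 3 UMIs stands for 1.63 CPM, 1.79 CPM (1.12 to 2.71) in the KO testis and 1.60 CPM (1.07 to 2.30) in the KO cauda. KO cauda epithelium had 96.7 CPM (57.3 to 153), from 18 UMIs in 7 of 30 barcodes, and the ungated barcodes 67.3 CPM (51.1 to 86.9). Of the 377 KO cauda UMIs, 194 lay in barcodes over the mitochondrial limit, and 1 barcode held 37. The KO testis held 105 UMIs in all.

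Ptgis, the prostacyclin synthase, was highest in macrophages in both cauda libraries and in another class in the KO testis. Neither cauda library had a myoid or smooth muscle, pericyte, fibroblast or endothelium class of at least 20 barcodes. Those cells could therefore not be compared between the organs. The macrophage level of Ptgis was 534 CPM (501 to 569) for the chimera cauda, 3.42 CPM (2.46 to 4.62) for the KO testis and 384 CPM (375 to 393) for the KO cauda, where macrophages held 95.3% of its UMIs. In the KO testis its highest class was myoid or smooth muscle, with 505 CPM (489 to 521) in 1512 of 1885 barcodes, and the endothelium followed with 202 CPM (177 to 228) in 75 of 106. Pericytes had 81.8 CPM (61.4 to 107), fibroblasts 52.6 CPM (47.8 to 57.6) and Leydig barcodes 26.0 CPM (24.6 to 27.3). In KO cauda macrophages it went with the Gata6 programme, at 389 CPM in the 998 barcodes with at least 10 UMIs of it. The 35 with fewer, some of them shallow, had 47.2 CPM of Ptgis, a fold of 8.23 (4.81 to 15.5). Unlike Alox15 its median was still 0 in the barcodes with 10 to 20 programme UMIs per 10000 and 230 CPM in the 44 with 20 to 40.

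Ptgds, the lipocalin-type prostaglandin D synthase, was the second gene by UMIs in Leydig barcodes of the KO testis, among 18021 detected. All 3403 Leydig barcodes held it, at 24005 CPM (23964 to 24046) together, from 243 to 186404 CPM per barcode with a median of 22634. Its highest class in the KO cauda was the epithelium, with 3958 CPM (3678 to 4255) in 27 of 30 barcodes, and the ungated barcodes had 1611 CPM (1527 to 1698). One KO cauda barcode that passed several gates held 855 of the 6947 UMIs, and 1854 (26.7%) lay in barcodes over the mitochondrial limit. With no mitochondrial limit the epithelium stood at 2179 CPM. Of the 1026 Ptgds UMIs of the chimera cauda, 317 lay in its barcodes of 1 to 19 UMIs, which are too shallow to be read as cells, at 538 CPM, and 9 lay in the single barcode that passed the epithelium gate.

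Ptgds was found in every class of the KO testis, and so were the Leydig markers. Macrophages there had 865 CPM (849 to 882), fibroblasts 1093 CPM, T or NK lymphocytes 1036 CPM and myoid or smooth muscle 1126 CPM. The highest gated class after Leydig was the 40 erythroid barcodes, at 2677 CPM. Even the lowest class, Sertoli barcodes, had 327 CPM in 467 of 475. The Ptgds UMIs in macrophages stood to their UMIs of Insl3, Cyp17a1, Hsd3b6, Cyp11a1 and Star at 0.841 (0.825 to 0.857) of the ratio in Leydig barcodes. The same quotient was 0.942 (0.923 to 0.962) in myoid or smooth muscle, 0.956 (0.936 to 0.975) in fibroblasts, 0.829 (0.680 to 1.0005) in T or NK lymphocytes and 0.620 (0.595 to 0.646) in Sertoli barcodes. Only germ cells, at 1.04 (0.960 to 1.13), and the barcodes without a gate, at 1.31 (1.29 to 1.32), were above 1. Levels of Ptgds in KO testis classes other than Leydig moved with the Leydig markers. Whether those cells made the transcript or carried RNA of Leydig cells was not tested. The KO cauda classes with few Ptgds UMIs lay close together, at 40.2 CPM in macrophages, 55.8 CPM in B lymphocytes and 56.9 CPM in T or NK lymphocytes.

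**Figure D3:**
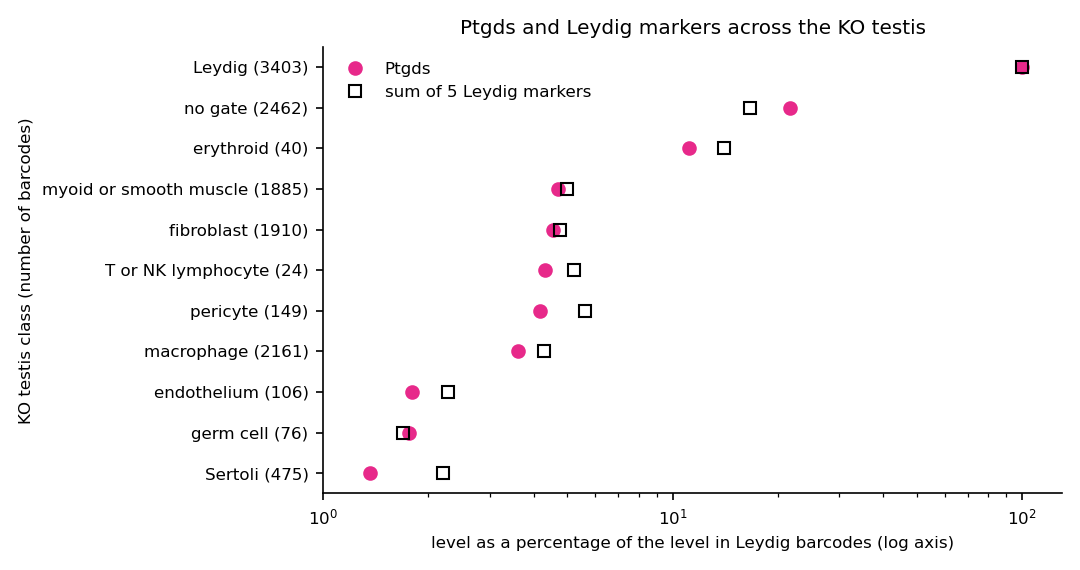
Level of Ptgds (filled circles) and of 5 summed Leydig markers (open squares) in each KO testis class and in barcodes with no gate, as a percentage of the level in Leydig barcodes (x axis, log scale; number of barcodes beside each class). The 2 points of a class lie close together, for example at 3.61% and 4.29% in macrophages.

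Hpgds, the cytosolic prostaglandin D synthase, was highest in KO testis macrophages. Chimera cauda macrophages had 4.34 CPM (1.88 to 8.56), KO testis macrophages 247 CPM (238 to 256) and KO cauda macrophages 2.70 CPM (1.9996 to 3.57). KO testis macrophages held 78.9% of its UMIs in that library, spread over 1441 of 2161 barcodes with at most 9 each. In Leydig barcodes it was 1.049 CPM, 2.65 times (2.004 to 3.43) what their macrophage markers carry. Of the 8 UMIs in chimera macrophages, 5 lay in 1 barcode, and 7 lay in the 3 macrophages without the Gata6 programme. In KO cauda macrophages it was 2.46 CPM (1.79 to 3.31) in the 998 with at least 10 programme UMIs and 18.2 CPM (5.90 to 42.4) in the 35 with fewer. B lymphocytes held 101 of the 181 KO cauda UMIs, at 5.62 CPM (4.58 to 6.83).

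Pla2g7, the plasma-type enzyme that breaks down platelet-activating factor, was high in macrophages of all 3 libraries. Macrophages held 607 CPM (571 to 643) of it in chimera cauda, 227 CPM (219 to 236) in KO testis and 515 CPM (505 to 526) in KO cauda libraries. Macrophages held 52.2% of its UMIs in the KO testis and 95.4% in the KO cauda. Sertoli barcodes of the KO testis had 91.9 CPM (84.97 to 99.2) in 301 of 475, and myoid or smooth muscle 48.0 CPM in 331 of 1885. Both were above what macrophage markers in those barcodes carry, by 265 times (243 to 289) in Sertoli barcodes and 56.4 times (50.6 to 62.7) in myoid or smooth muscle.

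Spermatid or sperm barcodes of the chimera were too shallow to speak of most of the enzymes. Their 30 barcodes had a median of 1276 UMIs, and 3 UMIs in the class already stand for 68.3 CPM. They held 13 UMIs of Alox15, 4 of Pla2g7 and 3 of Ltc4s, at most 2 of each of the other genes, and 0 of Ptgs2 and Hpgds. Their Alox15 stood to macrophage markers at 1.14 (0.606 to 1.95) of the ratio in macrophages. Whether these UMIs were RNA of macrophages was not tested.

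Barcodes holding every transcript of a route were counted, as deposited and after thinning each barcode to 2000 UMIs. Alox5, Alox5ap and Ltc4s, the route to leukotriene C4, were found together in 58 of 66 chimera cauda, 639 of 2161 KO testis and 614 of 1033 KO cauda macrophages. After thinning these were 21.2% (12.1 to 33.0), 6.86% (5.81 to 8.04) and 11.1% (9.25 to 13.2) in that order. Thinning left out 0, 106 and 17 barcodes under 2000 UMIs. KO cauda B lymphocytes held the route in 2 of 1876 barcodes as deposited (0.107%) and in 0 of 1862 after thinning, with an interval up to 0.198%. The median depth as deposited was 8850 UMIs there and 17148 in macrophages. Of the 614 KO cauda macrophages with that route, 610 also held Alox15.

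Among macrophages, the prostanoid routes differed between the cauda libraries and the KO testis, where organ, animal and library cannot be told apart. Ptgs1 with Ptgis, the route to prostacyclin, was found in 30.3% (19.6 to 42.9) of thinned chimera cauda macrophages, in 2 of 2055 in the KO testis and in 16.7% (14.5 to 19.2) in the KO cauda. Ptgs1 with Hpgds, a route to prostaglandin D2, was found in 1 of 66 thinned chimera cauda macrophages, in 7.54% (6.44 to 8.77) in the KO testis and in 5 of 1016 in the KO cauda. Unthinned, the prostacyclin pair was found in 57 of 66, 12 of 2161 and 752 of 1033, and the Hpgds pair in 2 of 66, 619 of 2161 and 36 of 1033. KO testis endothelium held the prostacyclin pair in 11 of 106 thinned barcodes and myoid or smooth muscle in 28 of 1841. Leydig barcodes, with the most Ptgds, held Ptgs1 in 1 of 3402 after thinning and in 16 of 3403 as deposited. KO cauda epithelium held Ptgs1 and Ptgds together in 14 of 27 thinned barcodes.

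**Figure D4:**
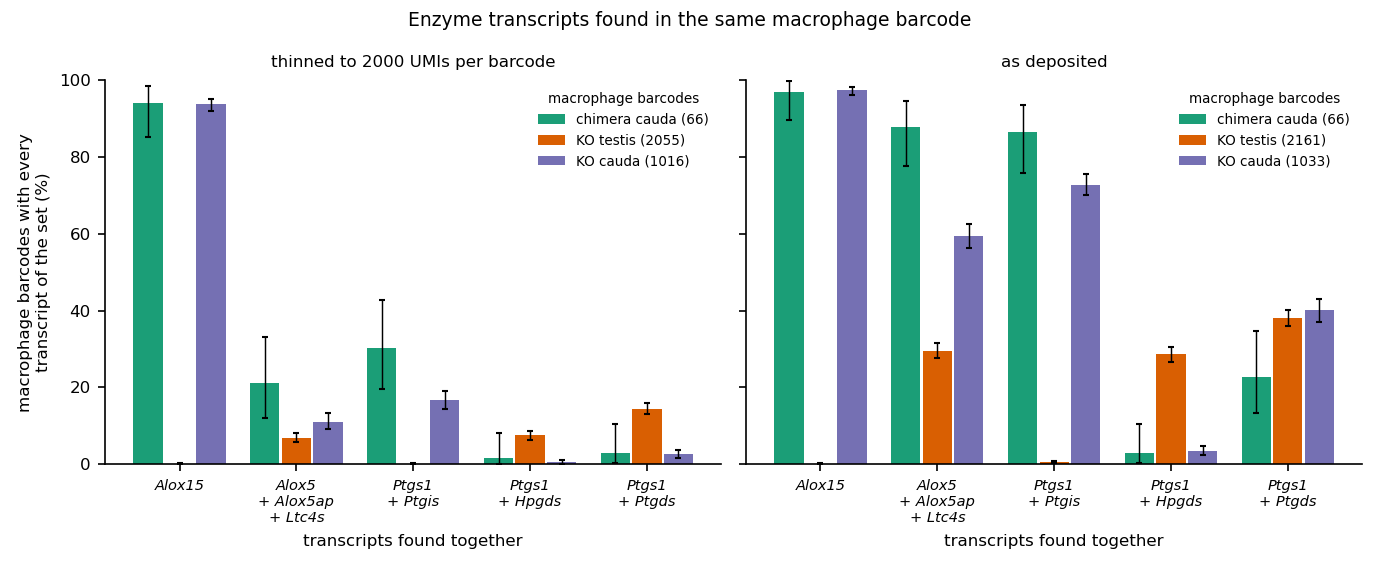
Share of macrophage barcodes in which every transcript of a set was found (y axis, percent; bars with exact 95% intervals for counting error), for 5 sets and the 3 libraries, after thinning to 2000 UMIs per barcode (left) and as deposited (right). Alox15 is found in over 90% of cauda macrophages, the Ptgs1 and Ptgis pair in cauda macrophages, and the Ptgs1 and Hpgds pair mainly in KO testis macrophages.

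KO testis and KO cauda macrophages differed by at least 2-fold in 6 of the 9 enzymes with at least 10 CPM in either, against 24.6% of 8370 genes so compared. Organ, animal and library cannot be told apart in this comparison. Hpgds was 91.4-fold higher (68.9 to 124) in the KO testis and Ptgds 21.6-fold higher (19.99 to 23.3), where KO testis macrophages also carried 4.29% of the Leydig marker level. Alox15 was 846 times (608 to 1214) lower in the KO testis, Ptgis 112 times (82.9 to 156), Alox5ap 2.68 times (2.60 to 2.75) and Pla2g7 2.27 times (2.18 to 2.37). Ptgs1 had a fold of 0.521 (0.489 to 0.555), Ltc4s of 0.735 (0.716 to 0.755) and Alox5 of 1.13 (1.047 to 1.23). The median log2 fold was -0.94 over the 9 enzymes and 0.24 over all genes compared.

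The barcode with the Gata6 programme decided the KO testis value of Alox15. Without it the gene stood at 1 UMI in 2160 macrophages, a level 29561 times (5305 to 1167632) lower than in the KO cauda, and Ptgis was 127 times (92.2 to 181) lower. Between macrophages of both organs with fewer than 10 programme UMIs, 2160 in the KO testis and 35 in the KO cauda, several folds were another. The 35 are a mixed group, since some are shallow barcodes with at least 10 programme UMIs per 10000. Alox5 had 89.6 CPM in those of the KO testis against 21.8 CPM in those of the KO cauda, 4.11-fold higher (1.88 to 11.2), and Ltc4s 668 CPM against 320 CPM, 2.09-fold higher (1.69 to 2.61). Alox5ap had a fold of 0.606 (0.531 to 0.695), Pla2g7 of 1.18 (0.899 to 1.58), Hpgds of 13.6 (5.82 to 41.9) and Ptgds of 9.53 (6.45 to 14.7). Alox15 was still 2096 times (358 to 84542) lower in the KO testis, from 1 UMI against 47. Ptgis was still 15.7 times (7.64 to 30.2) lower there. The 35 KO cauda barcodes had a median of 3583 UMIs and the 2160 of the KO testis 5541.

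**Figure D5:**
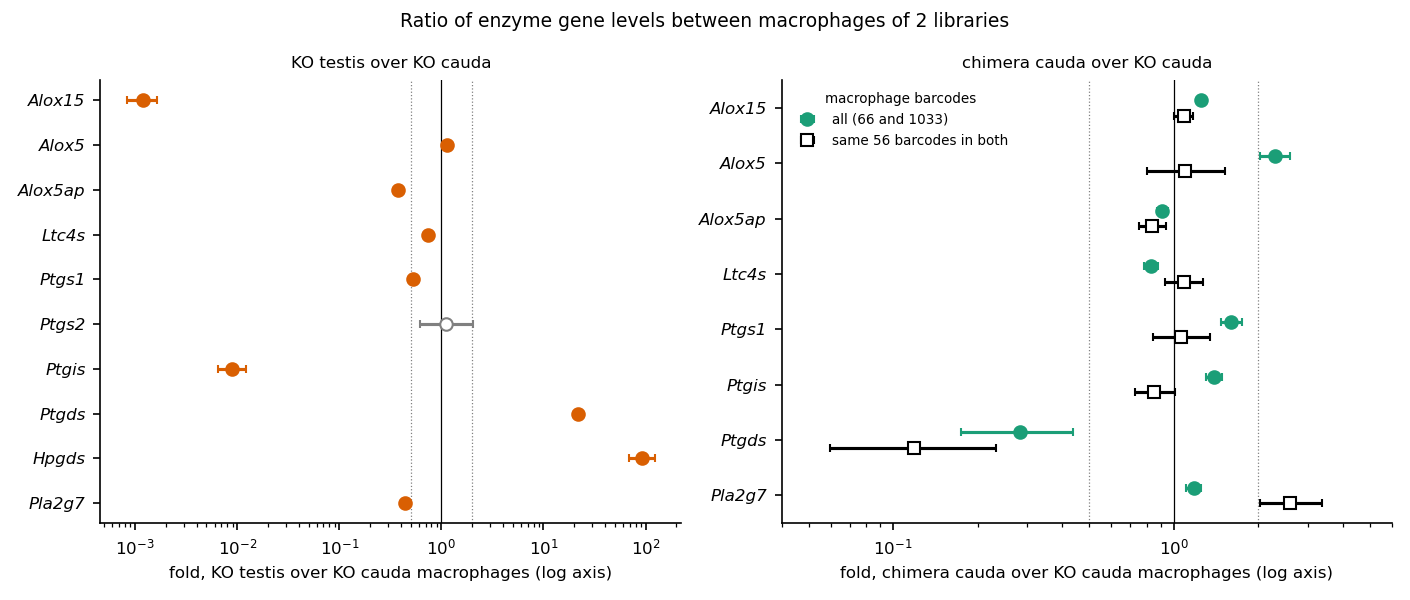
Folds of the enzyme genes between macrophages of 2 libraries with exact 95% intervals for counting error (x axis, log scale; solid line at 1, dotted lines at 0.5 and 2). Left, KO testis over KO cauda, with Ptgs2 open because it is under 10 CPM in both; right, chimera cauda over KO cauda for all macrophages (filled circles) and for the 56 barcodes that are macrophages in both libraries (open squares), where Alox5 stands at 2.30 and 1.10.

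Chimera cauda and KO cauda macrophages differed by at least 2-fold in 2 of 8 enzymes, against 6.52% of 7972 genes so compared, and the comparison rests on barcodes that both libraries hold. Alox5 was 2.30-fold higher (2.04 to 2.59) in the chimera, at 182 CPM against 79.4 CPM, and Ptgds was 3.52 times (2.29 to 5.72) lower, at 11.4 against 40.2 CPM. Ptgs1 had a fold of 1.60 (1.47 to 1.74), Ptgis of 1.39 (1.30 to 1.49), Alox15 of 1.25 (1.22 to 1.29), Pla2g7 of 1.18 (1.11 to 1.25), Alox5ap of 0.911 (0.872 to 0.951) and Ltc4s of 0.830 (0.785 to 0.876). The median log2 fold was 0.28 over the 8 enzymes and 0.24 over all genes compared.

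Over the 56 barcodes that were macrophages in both libraries, 6 of the 8 enzymes had folds between 0.839 and 1.10. Alox5 was 187 CPM in the chimera reads of these barcodes and 170 CPM in their KO cauda reads, a fold of 1.10 (0.805 to 1.52). Alox15 had a fold of 1.08 (1.01 to 1.17), Ltc4s of 1.09 (0.934 to 1.27), Ptgs1 of 1.06 (0.846 to 1.34), Ptgis of 0.854 (0.726 to 1.01) and Alox5ap of 0.839 (0.754 to 0.936). Pla2g7 at 2.60 (2.03 to 3.37) and Ptgds at 0.119 (0.0596 to 0.233) were the other two, with Ptgds at 9.91 CPM in the chimera reads and 83.3 CPM in the KO cauda reads. Within the KO cauda library the 56 were set beside 974 other macrophages, and the few left of its 1033 were in neither group. Alox5 was at 170 CPM in the 56 and 77.7 CPM in the 974, a fold of 2.19 (1.60 to 2.93). Ptgis had a fold of 1.69 (1.45 to 1.96), Ptgs1 of 1.54 (1.23 to 1.90) and Pla2g7 of 0.467 (0.362 to 0.594). Levels of the 974 were near those of all KO cauda macrophages, at 2402 CPM for Alox15 and 380 CPM for Ptgis.

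B lymphocytes gave 4 enzymes with at least 10 CPM in either cauda library, of which 2 differed by at least 2-fold, against 7.53% of 7639 genes. Ltc4s was 2.56-fold higher (1.19 to 4.96) in the chimera, from 10 UMIs, and Ptgds 6.73 times (3.25 to 16.8) lower, at 8.29 against 55.8 CPM. The Ltc4s UMIs of chimera B lymphocytes stood to their macrophage markers at 1.30 (0.620 to 2.39) of the ratio in macrophages. That quotient in KO cauda B lymphocytes was 0.740 (0.589 to 0.918) for Ltc4s, 0.763 (0.667 to 0.869) for Alox15 and 5.11 (4.27 to 6.08) for Ptgs1.

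Other genes of the pathway were read from a list of 56, and 43 of them had at least 10 CPM in a class. Macrophages of a library led 10 of the 43, against 9.27% of 14904 genes with at least 10 CPM in a class. The prostaglandin-degrading dehydrogenase Hpgd had its highest level in KO testis macrophages, at 819 CPM (803 to 835). Akr1b3, an aldose reductase that can make prostaglandin F2α, was highest in Sertoli barcodes at 1084 CPM, and Ptgr1, a reductase of prostaglandins and leukotriene B4, was highest there too, at 246 CPM. Dpep1, a dipeptidase that turns leukotriene D4 into E4, was highest in fibroblasts at 605 CPM, and Mgst3, a microsomal glutathione transferase, in pericytes at 498 CPM. Ptges3, a co-chaperone also called a prostaglandin E synthase, was highest in germ cells at 455 CPM. Prxl2b, a prostamide and prostaglandin F synthase, was highest in KO testis macrophages at 253 CPM.

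On the cauda side, 3 of the 12 genes with the highest levels were led by the KO cauda epithelium or its B lymphocytes. Cbr1, a carbonyl reductase, had 322 CPM (246 to 415) in the epithelium, and Slco2a1, the prostaglandin transporter, 215 CPM (153 to 293). Pafah1b3, a subunit of the intracellular platelet-activating factor hydrolase, had 323 CPM in B lymphocytes. Its partners Pafah1b1 and Pafah1b2 were highest in chimera spermatid or sperm barcodes, at 456 CPM (278 to 704) from 20 UMIs and 364 CPM (208 to 592) from 16 UMIs.

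Receptors of these mediators were read from the same list. Of 15 receptor genes of prostanoids, leukotrienes and lipoxin, 8 had at least 10 CPM in a class, and so did Ptafr, the receptor of platelet-activating factor. Ptafr had 86.9 CPM in chimera cauda, 166 CPM in KO testis and 91.5 CPM in KO cauda macrophages. Cysltr1, the receptor of cysteinyl leukotrienes, had 52.7 CPM in chimera cauda, 91.9 CPM in KO testis and 37.0 CPM in KO cauda macrophages. Ptger4, a receptor of prostaglandin E2, had 83.1, 24.9 and 66.6 CPM in macrophages in that order of libraries, and 95.9 CPM (46.0 to 176) in the 24 T or NK lymphocytes of the KO testis. Ptgir, the prostacyclin receptor, had 15.7 CPM in chimera cauda, 0.326 CPM in KO testis and 10.6 CPM in KO cauda macrophages, and 18.2 CPM (9.39 to 31.7) in KO testis pericytes. Fpr2, which binds lipoxin A4, had 29.9, 1.38 and 41.9 CPM in macrophages. Tbxa2r, of thromboxane, had 34.4 CPM in KO testis endothelium, Ptger2 15.4 CPM in its myoid or smooth muscle, and Ltb4r1 and Cysltr2, of leukotrienes, 115 CPM from 12 UMIs and 38.4 CPM from 4 UMIs in its T or NK lymphocytes.

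Between KO testis and KO cauda macrophages, 15 of 30 of these other genes with at least 10 CPM were past 2-fold, 10 higher and 5 lower, against 24.6% of all genes. Hpgd was 16.1-fold higher (15.1 to 17.3), at 819 against 50.8 CPM, and Prxl2b 5.48-fold higher (5.08 to 5.93). Of the 5 lower, 3 were the receptors Fpr2, Ptgir and Ptger4, with folds of 0.0330 (0.0191 to 0.0532), 0.0306 (0.00825 to 0.0796) and 0.374 (0.329 to 0.424). The other two, named after their values were seen, were the prostaglandin E synthase Ptges at 0.133 (0.0847 to 0.201) and the dipeptidase Dpep2 at 0.0534 (0.0398 to 0.0702). Pla2g2d, a secreted phospholipase also named after its values were seen, had 64.1 CPM in KO testis macrophages against 0.110 CPM, from 2 UMIs, in KO cauda macrophages. Between chimera cauda and KO cauda macrophages, 2 of 26 were past 2-fold, a share near the 6.52% of all genes. They were the leukotriene exporter Abcc1, named after its value was seen, higher at 2.46 (1.62 to 3.65) and Hpgd lower at 0.278 (0.181 to 0.410). This comparison too rests on barcodes that both libraries hold, and Abcc1 and Hpgd were not compared over the shared barcodes alone.

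Genes most like each enzyme were taken by the Pearson correlation of log2(CPM + 1) over 17 classes of the 3 libraries, among 12427 genes. The classes share libraries and depth, and the figures only describe them. Alox15 was most like F10 (0.983) and F5 (0.970), coagulation factors X and V, and Slpi (0.955). Alox5 was most like Cmklr1 (0.985), Pilrb2 (0.970) and Arl11 (0.966), Alox5ap most like Fcgr3 (0.964), Fcna (0.963) and Timd4 (0.957), and Ltc4s most like Fcna (0.953), Tbxas1 (0.951) and Timd4 (0.950). Ptgs1 was most like Atp8a1 (0.857), Mctp1 (0.844) and Ifi44l (0.839), and Ptgs2 most like Ranbp3l (0.926), Rasgrf1 (0.908) and Phf19 (0.862). Ptgds was most like Klk1b27 (0.967), Prlr (0.967) and Aldh1a1 (0.957), and Ptgis most like Fgfr1 (0.867), Tgfb2 (0.858) and Stard13 (0.852). Hpgds was most like the purinergic or lysophospholipid receptor genes Gpr34 (0.809), P2ry13 (0.806) and Lpar6 (0.793), and Pla2g7 most like Trf (0.892), Plxnb2 (0.879) and Cln8 (0.866).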

How the data were processed

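Single cells were captured on 10x Chromium with 3′ chemistry of version 3.1, per the labels. The deposited matrices hold raw UMI counts per gene and barcode, whole numbers with no normalization. Cell Ranger 6, the build GRCm38.p6 and Seurat 4.2.1 are named in the submitters' processing notes. Per the file headers, Cell Ranger 6.1.2 wrote the KO testis and KO cauda matrices and Cell Ranger 4 the chimera cauda matrix, and software version and chimera cannot be told apart. The counter's annotation is not given in the sources used here.

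Positions came from GENCODE M21, in which 26013 of 26124 gene IDs were found. Samples were grouped by their titles, with 1 library in each group. A gate needed at least 2 different markers and a minimum of marker UMIs, 10 for macrophages and B lymphocytes, 5 for T or NK lymphocytes and epithelium, 60 for Leydig, 30 for Sertoli and fibroblasts, and 10 for myoid cells. These minimums were set on marker UMIs after the files had been seen. Barcodes that passed several gates were left out of classes (3 in the chimera cauda, 959 in the KO testis and 59 in the KO cauda), pericytes with contractile genes excepted, and no doublet caller was run. Classes under 20 barcodes were left out when the highest class of a gene was sought. A count of 0 was read against a floor of 3 UMIs. To gauge free RNA, the ratio of a gene's UMIs to the summed markers of its main class was compared between classes. Shares were also taken after thinning to 2000 UMIs with seed 11. The fold rule was tested on simulated data. Genes are named by rule: all 10 enzymes, the 12 other pathway genes with the highest class level, receptors with at least 10 CPM in a class, and 3 genes per enzyme by likeness. The members and lists were chosen with earlier results of these data known. With 1 library a group, the authors' counts allow no test, and the effect of other settings is given in the closing section. Tools were Python 3.11.15, numpy 2.4.6, scipy 1.17.1 and pandas 2.3.3.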

Additional observations from a re-analysis of the deposited data

Results flagged for a closer look

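Ptgds stood out in chimera cauda barcodes that the filters leave out. In the 21 barcodes of at least 500 UMIs over the mitochondrial limit, its level was 1882 CPM (95% interval 1497 to 2336), against 22.8 CPM (0.577 to 127) in spermatid or sperm barcodes, the highest class of that library. This came from 82 UMIs in 4 barcodes, and 1 barcode held 74 of them. Epithelial markers summed to 91.8 CPM in these 21 barcodes, macrophage markers to 643 CPM, B lymphocyte markers to 1584 CPM and Leydig markers to 0 CPM. The cause was not tested.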

How the results depend on the processing

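The counts of enzymes led by macrophages and past 2-fold kept within 1.5 times of their value in 37 of 42 repeats, and no fold past 2-fold changed direction in any repeat. With gate minimums doubled, macrophages led 7 enzymes in place of 6 in the KO cauda. KO cauda epithelium and KO testis T or NK lymphocytes then fell under 20 barcodes. Their levels could not be repeated at that setting, which left 22 levels in place of 27. The log2 fold of Alox5ap between chimera cauda and KO cauda B lymphocytes, -0.0036, lay near 0 and changed sign with gate minimums doubled (0.03) and by the mean of per-barcode CPM (0.17). Between chimera cauda and KO cauda macrophages, 1 enzyme in place of 2 was past 2-fold at a minimum of 50 CPM and 0 at 4-fold. Between their B lymphocytes 1 in place of 2 was past it with barcodes of several gates kept in the class with most marker UMIs, at 50 CPM, and at 4-fold. Of the repeats of single levels and folds, 222 kept within their interval and 42 moved. Levels that changed by over 1.5 times were Ptgds in chimera spermatid or sperm barcodes (0 CPM with gate minimums doubled) and Ptgds and Hpgds in KO cauda epithelium with no mitochondrial limit (2179 and 2.70 CPM). Of these, Hpgds still lay within its interval. Log2 folds of KO testis over KO cauda macrophages that changed as much were Alox15 (-10.91) and Hpgds (5.88) by the mean of per-barcode CPM and Ptgis (-4.80) with barcodes of several gates kept. The cause was not tested. Repeats without the shared barcodes and with more than 3 UMIs in the leading class were chosen after seeing the data, and the first left no chimera macrophage or B lymphocyte class to compare, while Ptgds in spermatid or sperm barcodes stood at 27.1 CPM. No paired analysis was possible because each group has 1 library and no replicate numbers. The chimera library's depth limits what it can show of spermatids and sperm.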
